A study of Homo sapiens with 6 samples.

Results

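EGFR and 5 protein-coding neighbours on chromosome 7 (POM121L12, VSTM2A, SEC61G, LANCL2 and VOPP1) were followed through an ATAC-seq experiment in A375 cells, a human melanoma cell line. The members are ATAC-seq peaks, chosen by position and gene: a peak belongs to a gene when its centre lies in the GENCODE release 44 body of that gene, or when it is intergenic and the gene has the nearest protein-coding start site. This gave 130 of the 152800 peaks of the table, all on chromosome 7 of hg38 and all deep enough to be tested. POM121L12 had 37 of them, VSTM2A 22, SEC61G 18, EGFR 22, LANCL2 14 and VOPP1 17. The genes were chosen because earlier results of the same libraries had shown lower accessibility in this region, so the fold changes of the members are given below as a description, without a test.

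The libraries came from A375 cells carrying a stable lentiviral integration, with 3 libraries of empty vector (EV) cells and 3 of cells overexpressing HMGB2 (HMGB2OE), a high mobility group protein that binds and bends DNA. The study describes the 3 libraries of a condition as technical replicates and the experiment as not repeated, so error here is the spread between libraries of 1 culture experiment, and p-values measure that spread only. The sources do not state whether the lines were single clones. Accessibility does not report the vector's transcript, so the overexpression itself could not be checked in these data.

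ATAC-seq reads mark DNA that the Tn5 transposase can reach, which in most cells means promoters and enhancers free of tightly packed nucleosomes. EGFR encodes the epidermal growth factor receptor, a receptor tyrosine kinase at the cell surface. Ligands such as EGF, TGFA and AREG bind it, it pairs with itself or with its relatives ERBB2, ERBB3 and ERBB4, and adaptors such as GRB2 and SHC1 pass the signal to the RAS–MAPK and PI3K pathways. In melanoma, EGFR is known as a receptor of poorly differentiated cell states that can accompany resistance to BRAF inhibitors. SEC61G encodes a subunit of the channel that moves new proteins into the endoplasmic reticulum, and is known to be co-amplified with EGFR in glioma. LANCL2 is a LanC-like protein that binds glutathione and associates with the plasma membrane, VOPP1 is a membrane protein first described as overexpressed and co-amplified with EGFR, VSTM2A is a secreted immunoglobulin-domain protein, and POM121L12 belongs to a family related to the nuclear pore protein POM121.

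The peaks that carry the results are shown as sequence, because the fold changes below are read at these stretches. All are the plus strand of hg38, 5′ to 3′, in lower case, with 3 words in capitals wherever they occur on either strand: the AP-1 word TGAGTCA, the GC box GGGCGG and the SOX word ACAAAGG. The words do not overlap each other in these stretches. The first is the EGFR promoter, the 250 bases upstream of the RefSeq start (GRCh38.p14, chr7:55018767-55019016), and the others are 200-base stretches of peaks, namely the most accessible EGFR peak (chr7:55132943-55133142), the EGFR peak (chr7:55180400-55180599) and the SEC61G peak (chr7:54860556-54860755) with the highest fold change, the peak with the lowest fold change of all (chr7:52839214-52839413, assigned to POM121L12), and the start site of the long non-coding RNA LINC01446 (chr7:53811753-53811952).
EGFR promoter: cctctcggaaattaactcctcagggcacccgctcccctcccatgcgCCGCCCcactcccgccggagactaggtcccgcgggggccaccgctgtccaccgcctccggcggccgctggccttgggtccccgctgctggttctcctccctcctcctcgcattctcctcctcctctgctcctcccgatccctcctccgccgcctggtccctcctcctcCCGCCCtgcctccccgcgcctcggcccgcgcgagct
EGFR most accessible intronic peak: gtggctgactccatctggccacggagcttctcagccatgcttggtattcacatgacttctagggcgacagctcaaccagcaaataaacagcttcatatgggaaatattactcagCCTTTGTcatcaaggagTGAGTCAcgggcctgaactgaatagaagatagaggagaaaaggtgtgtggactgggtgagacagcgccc
EGFR highest fold change: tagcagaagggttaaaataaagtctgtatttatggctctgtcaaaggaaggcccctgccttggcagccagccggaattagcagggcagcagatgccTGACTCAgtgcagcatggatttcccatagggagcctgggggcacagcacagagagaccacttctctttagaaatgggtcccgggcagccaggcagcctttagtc
SEC61G highest fold change: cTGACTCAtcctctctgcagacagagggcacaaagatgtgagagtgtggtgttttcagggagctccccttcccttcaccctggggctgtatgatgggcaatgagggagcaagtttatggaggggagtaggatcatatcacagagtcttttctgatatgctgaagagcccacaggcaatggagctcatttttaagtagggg
Lowest fold change: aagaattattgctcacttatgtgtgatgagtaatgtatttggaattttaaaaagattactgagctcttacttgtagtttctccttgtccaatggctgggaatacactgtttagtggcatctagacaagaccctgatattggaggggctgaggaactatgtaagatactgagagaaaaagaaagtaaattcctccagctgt
LINC01446 start site: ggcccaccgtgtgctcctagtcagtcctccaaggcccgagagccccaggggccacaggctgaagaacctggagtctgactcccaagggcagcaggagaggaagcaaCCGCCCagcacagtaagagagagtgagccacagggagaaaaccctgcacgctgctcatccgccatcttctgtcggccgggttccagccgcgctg
The EGFR promoter stretch held 2 GC boxes and was 73.6% G or C. A GC box occurs in 42.6% of the 35116 RefSeq upstream stretches of the same length. The most accessible EGFR peak held 1 SOX word and 1 AP-1 word near its end, the EGFR and SEC61G stretches of highest fold change each held 1 AP-1 word, the LINC01446 stretch 1 GC box, and the stretch of lowest fold change none of the 3 words.

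Between 26910189 and 45645294 counts per library lay in peaks, and TMM factors were between 0.975 and 1.02. Values below are normalized counts, that is counts scaled to the mean effective library size, and peaks are 502 bases wide apart from 15 of the table, so that counts per peak can be compared between genes. As a check of the cell type, 5 of 8 melanocyte lineage and neural crest genes had promoter peaks (SOX10, MITF, PMEL, S100B and PAX3), while MLANA, TYR and DCT had none. Summed over the list, the promoter peaks gave 9863 to 10603 normalized counts in EV libraries and 9869 to 10244 in HMGB2OE libraries. Of the keratinocyte and epithelial markers, KRT14, KRT5 and EPCAM had promoter peaks and CDH1 none, with summed counts of 1034 to 1084 in EV and 1002 to 1103 in HMGB2OE libraries. Of the leukocyte markers, CD3E had a promoter peak (238 to 267 in EV and 172 to 319 in HMGB2OE libraries), and PTPRC had none. Summed marker levels thus overlapped between the conditions in each of the 3 lists. The sums cannot be compared between lists, since promoter peaks per gene ranged from 7 at SOX10 to 1 at KRT14 and CD3E.

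The first comparison asked where along the chromosome accessibility was lower in HMGB2OE cells, and where that ends. The running median of the log2 fold change over 15 consecutive tested peaks was at or below the limit of -0.2 from chr7:52540296 to chr7:54705643 (peak centres), a distance of 2.17 Mb with 56 tested peaks, all of them members. This low stretch held 29 peaks of POM121L12, all 22 of VSTM2A and 5 of SEC61G. It held no peak of EGFR, LANCL2 or VOPP1, so the name of the locus goes against the data at EGFR: the running median at the middle of the EGFR body was 0.12. The median log2 fold change inside the stretch was -0.91, and 53 of its 56 peaks had a value below 0. The lowest running median, -1.40, was at the VSTM2A peak centred at position 54252484. In a bulk library, a site open in fewer cells and a site less open in each cell cannot be told apart. Counts were also not corrected for DNA copy number, which was not measured in either line. The low stretch is thus a description of counts, and its cause was not tested.

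The right end of the stretch lay 54.3 kb before the start site of SEC61G, which is transcribed towards it, and 313 kb before that of EGFR. The last peak inside (chr7:54705393-54705894) had normalized counts of 107, 108 and 104 in EV1, EV2 and EV3 and of 68.0, 55.9 and 83.3 in HMGB2OE1, HMGB2OE2 and HMGB2OE3, a log2 fold change of -0.64 (SE 0.185). All 3 HMGB2OE libraries were below all 3 EV libraries at that peak. Centred 16.5 kb further right, the next peak (chr7:54721845-54722346) had 47.2, 44.7 and 41.0 against 62.0, 47.5 and 57.4 (log2 fold change 0.33, SE 0.24), with every HMGB2OE library above every EV library. The running median there was -0.17, and it was above 0 by the SEC61G promoter.

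On the left the stretch ended in a region with few peaks. The first peak inside (chr7:52540046-52540547) had 47.2, 31.8 and 35.1 in EV libraries and 25.5, 17.5 and 27.0 in HMGB2OE libraries (log2 fold change -0.70, SE 0.33). The nearest peak outside, 127 kb away (chr7:52412991-52413492), had 70.9, 34.4 and 21.1 against 41.7, 45.9 and 65.3 (log2 fold change 0.30, SE 0.31), with overlapping libraries. The running median passed there from -0.05 to -0.54 in a single step. Both peaks are shallow, and the left end is known no better than the distance between them. Of the 8 POM121L12 peaks further left, the one at chr7:52299112-52299613 was also called lower, with 57.0, 59.4 and 46.8 in EV and 31.5, 22.5 and 32.7 in HMGB2OE libraries (log2 fold change -0.92, SE 0.28), although the median of the 8 was 0.14.

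**Figure D1:**
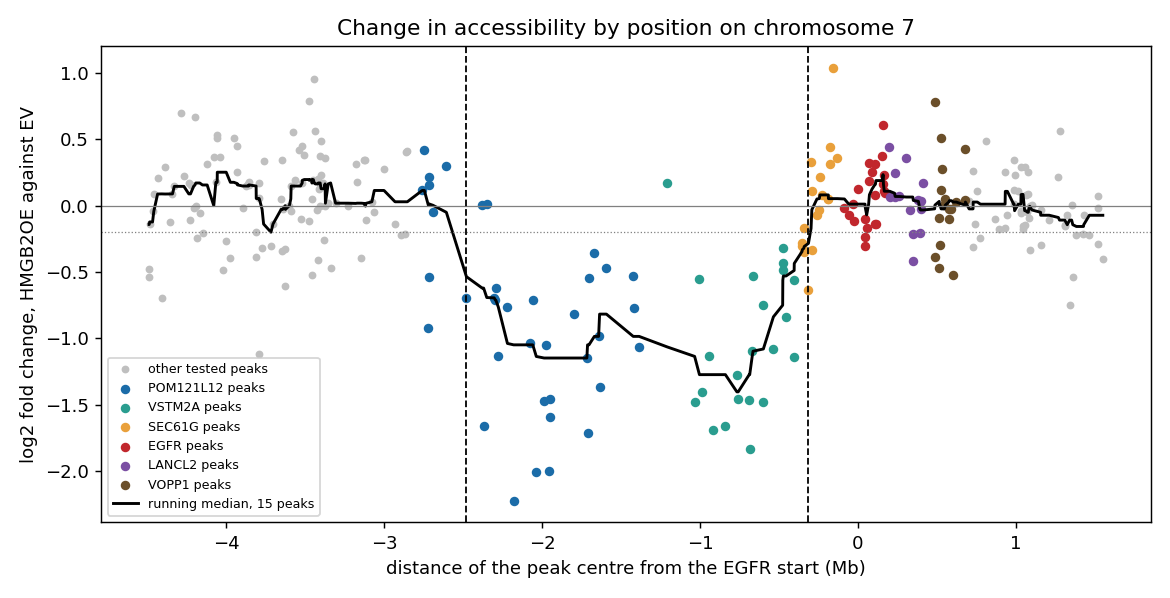
Log2 fold change of each tested peak (y axis, HMGB2OE against EV) by distance of its centre from the EGFR start (x axis, Mb), with members coloured by gene, other peaks in grey, the running median over 15 peaks as a black line, the limit of -0.2 dotted and both ends dashed. The line drops below the limit among the POM121L12 peaks, is at its lowest (-1.40) among the VSTM2A peaks and is back near 0 before EGFR.

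Neither side was a single step when peaks were grouped by position. In windows of 250 kb the median log2 fold change was -1.40 from 54.00 Mb (5 peaks), -1.27 from 54.25 Mb (9 peaks), -0.34 from 54.50 Mb (14 peaks), 0.05 from 54.75 Mb (14 peaks) and 0.12 from 55.00 Mb (20 peaks). The left side went from 0.14 in the window from 52.25 Mb (8 peaks) to -0.69 in the next (8 peaks), -1.04 from 52.75 Mb (5 peaks) and -1.47 from 53 Mb (6 peaks). A fit of 2 levels on each side, which does not smooth over neighbouring peaks, put the ends at 52649202 and 54615802, 1.97 Mb apart, with a median of -1.07 inside and 0.02 outside on the left and of -1.08 inside and -0.00 outside on the right. By that fit the right end is the last VSTM2A peak, and the 5 SEC61G peaks of the low stretch, with a median of -0.31, lie beyond it.

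Each HMGB2OE library was low over the stretch, which had been defined from the fold changes of these same 6 libraries. Against the EV mean, the median log2 ratio over the 56 peaks was -0.96 in HMGB2OE1, -1.09 in HMGB2OE2 and -0.73 in HMGB2OE3, with 54, 53 and 54 peaks below 0. Each EV library against the other 2 EV libraries gave 0.02, -0.05 and 0.03, with 26, 33 and 26 peaks below 0. The conditions therefore did not overlap in this summary. Taken alone, HMGB2OE1 and HMGB2OE2 each put the ends at 52413241 and 54722095, and HMGB2OE3 at 52640178 and 54664451, so its stretch was 2.02 Mb long against 2.31 Mb in the other two. Summed CPM (counts for each 1e6 counts in peaks) over the stretch were 185 ± 1.78 (SD, n = 3) in EV and 116 ± 1.71 (SD, n = 3) in HMGB2OE libraries, the latter being 63.0% of the former. Over the 66 member peaks to the right of it they were 466 ± 3.47 and 483 ± 4.04 (SD, n = 3 each), or 104%.

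**Figure D2:**
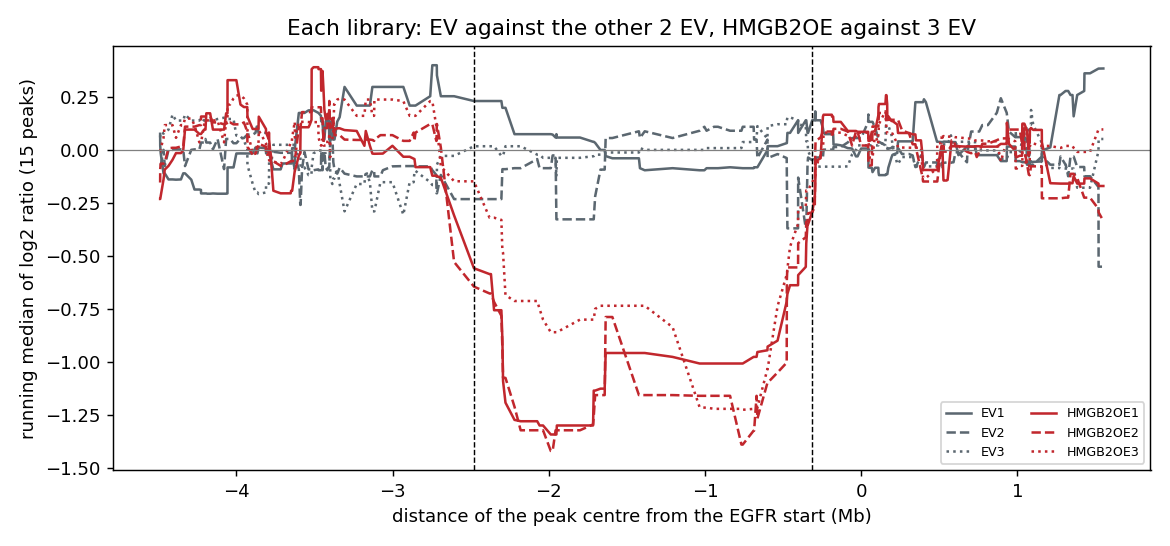
Running median over 15 peaks of the log2 ratio of each library (y axis) by distance from the EGFR start (x axis, Mb), EV libraries in grey against the other 2 EV libraries and HMGB2OE libraries in red against the mean of 3, with the ends dashed. The lowest value among member peaks was between -1.42 and -1.23 in the 3 HMGB2OE libraries and between -0.37 and -0.12 in the EV libraries.

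By the call rule (edgeR's quasi-likelihood test, Benjamini-Hochberg adjusted p under 0.05 and a fold of at least 1.5), 33 of the 130 members were called lower, where 1.44% of all tested peaks were, and 2 were called higher, where 1.87% of all tested peaks were. Without the fold limit these were 37 (3.03% of all tested peaks) and 5 (3.44%). Since the members were chosen for this contrast, nothing is read from these counts. Of the 33, 32 lay inside the low stretch. Libraries did not overlap, with HMGB2OE lower, at 55 members (12.5% of all tested peaks) and, with HMGB2OE higher, at 19 (12.6%). The median log2 fold change was -0.17 over the members and -0.00 over all tested peaks.

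Across the genome, 117 runs of at least 15 consecutive tested peaks had a running median at or below the limit, and they held 1.81% of tested peaks. Runs of at least 15 peaks in the other direction numbered 178. Among the 117 low runs, the stretch before EGFR was the fifth by number of peaks and the ninth by length. It was the second by its lowest running median, after a low run on chromosome 18. On chromosome 7 there were 7 other such runs. The one with the most negative median of these 7, from 48425082 to 49852948, held 27 peaks with a median of -0.47. Between that run and the low stretch, the 250 kb windows from 50.00 to 52.25 Mb had medians between -0.06 and 0.17.

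The low stretch is poor in genes, and intergenic position and distance to a start site also entered the assignment of peaks to genes. Its peaks were sparse, at 25.9 tested peaks per Mb, and 92.9% were intergenic against 48.7% of all tested peaks. Their median distance to a protein-coding start site was 224 kb, against 40.0 kb for all tested peaks, and 10.7% lay within 3 kb of a start site of a coding or long non-coding transcript, against 26.4%. Median EV counts were 73.7 against 104, and median GC content was 43.5% against 46.2%. The median coefficient of variation between EV libraries was 16.1%, against 12.5% for all tested peaks. GC content and peak density apart, these traits were not particular to the stretch. The 46 tested peaks in the 1 Mb to its left had a median log2 fold change of 0.12 and were 100% intergenic. They lay at a median of 434 kb from a protein-coding start, 8.70% near a start site, with a median EV count of 80.0. Their coefficient of variation was 17.9%. Their median GC content was 46.2%, the same as over all tested peaks. Within the stretch the fold change did not follow the EV level (Spearman's rho -0.01 over 56 peaks of the same 6 libraries), and the 28 more accessible and the 28 less accessible peaks each had a median of -0.91. It was higher at higher GC content (rho 0.43 over the same peaks), as a description only.

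POM121L12, whose short single gene body held no peak, had the peaks farthest from EGFR. In the stretch, which was defined from these same fold changes, its 29 peaks had a median log2 fold change of -0.99. Of these, 18 were called lower (62.1%, against 1.44% of all tested peaks) and none higher (against 1.87%). At the peak of the lowest fold change (chr7:52839063-52839564, shown above), EV libraries had 110, 132 and 59.7 normalized counts and HMGB2OE libraries 23.8, 16.7 and 24.8. The lowest EV library was above the highest HMGB2OE library by more than the range of the latter, and the log2 fold change was -2.22 (SE 0.276). The most accessible peak called lower in the stretch (chr7:53602795-53603296) had 442, 585 and 563 against 332, 306 and 296 (log2 fold change -0.77, SE 0.11). EV1 was the lowest EV library there and still above each HMGB2OE library. The highest POM121L12 peak (chr7:52273640-52274141) lay left of the stretch, with 360, 417 and 452 against 496, 544 and 611 (log2 fold change 0.42, SE 0.106).

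The VSTM2A peaks had the lowest median of the 6 genes, -1.12, with 13 of 22 called lower (59.1%, against 1.44% of all tested peaks). Accessibility over its own gene was lower by less than over the intergenic DNA before it. At its start site (chr7:54542130-54542631) EV libraries had 82.0, 56.8 and 65.5 and HMGB2OE libraries 34.9, 50.9 and 65.3, which overlap (log2 fold change -0.44, SE 0.244). The promoter peak of highest mean count (chr7:54543118-54543619) had 79.2, 52.5 and 72.6 against 57.0, 44.2 and 60.8, also overlapping (log2 fold change -0.32, SE 0.229). An intronic peak of high GC content, 74.7% (chr7:54546590-54547091), had 213, 264 and 257 against 150, 199 and 178, with the conditions apart (log2 fold change -0.49, SE 0.133). The 4 peaks inside the gene had a median of -0.46 and none was called, and the 50 peaks of the stretch farther than 3 kb from any start site had a median of -0.91.

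The intergenic peaks assigned to VSTM2A include 2 long non-coding RNA start sites with opposite values. At the start site of LINC01445 (position 54330670), the peak chr7:54330363-54330864 had 66.7, 68.8 and 43.3 in EV libraries and 31.5, 15.8 and 16.9 in HMGB2OE libraries, with the conditions apart (log2 fold change -1.46, SE 0.31). Inside LINC01445, the peak chr7:54333484-54333985 had 54.2, 57.6 and 57.3 in EV libraries and 17.9, 10.8 and 19.1 in HMGB2OE libraries, the lowest fold change assigned to VSTM2A (-1.83, SE 0.316). The start site of LINC01446 (chr7:53811602-53812103, shown above) was the most accessible peak in the whole stretch. It had 860, 938 and 903 in EV and 994, 1066 and 987 in HMGB2OE libraries, so that every HMGB2OE library was above every EV library (log2 fold change 0.17, SE 0.082). It was the only one of the 56 peaks whose libraries were apart in that direction, and was not called. The peaks nearest to it on either side, 178 kb to the left and 173 kb to the right, had log2 fold changes of -1.07 and -1.48. A VSTM2A peak of high accessibility without a start site (chr7:54260693-54261194) had 428, 490 and 472 against 185, 176 and 142 (log2 fold change -1.46, SE 0.119).

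SEC61G straddled the right end. Its 5 peaks inside the stretch had a median of -0.31 and its 13 peaks to the right a median of 0.11. Its promoter peak (chr7:54759115-54759616), shared with the divergent transcript SEC61G-DT, had 639, 700 and 688 in EV libraries and 602, 695 and 637 in HMGB2OE libraries, with overlap (log2 fold change -0.07, SE 0.09). The highest fold change of all members was at the intergenic peak chr7:54860405-54860906, 158 kb before the EGFR start. It had 93.1, 80.0 and 105 against 158, 173 and 243 (log2 fold change 1.04, SE 0.168), and was called higher. Of the 13 peaks right of the end, 6 had every HMGB2OE library above every EV library (12.6% of all tested peaks) and 1 had the reverse (12.5%). The median over all 18 SEC61G peaks was 0.05 and turned negative without EV2 (-0.05), without EV3 (-0.02) and without HMGB2OE1 (-0.02), so no direction is given for the gene.

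EGFR was the most accessible of the 6 genes per peak, and its accessibility summed over 22 peaks differed between the conditions by less than the spread between libraries. The mean normalized count per peak was 374, 403 and 405 in EV1, EV2 and EV3 and 400, 396 and 388 in HMGB2OE1, HMGB2OE2 and HMGB2OE3. EV1 was lowest and the HMGB2OE libraries lay inside the range of the EV libraries. The group values were 394 ± 17.5 and 395 ± 5.99 (SD, n = 3 each), a log2 ratio of 0.00. No EGFR peak was called lower (against 1.44% of all tested peaks), 1 was called higher (4.55%, against 1.87%), and 9 of 22 had a fold change below 0.

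The EGFR promoter peak (chr7:55018789-55019290) spans the start site and part of the first exon, and overlaps the upstream sequence shown above. It had 478, 537 and 477 in EV libraries and 529, 561 and 541 in HMGB2OE libraries, and the conditions overlapped through EV2 (log2 fold change 0.12, SE 0.095). The most accessible EGFR peak, 114 kb into the gene in an intron (chr7:55132641-55133142), had 1744, 1849 and 1944 against 1714, 1614 and 1694. Each HMGB2OE library was below each EV library there, by a log2 fold change of -0.14 (SE 0.074), and the peak was not called. It carries the AP-1 and SOX words shown above.

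**Figure D3:**
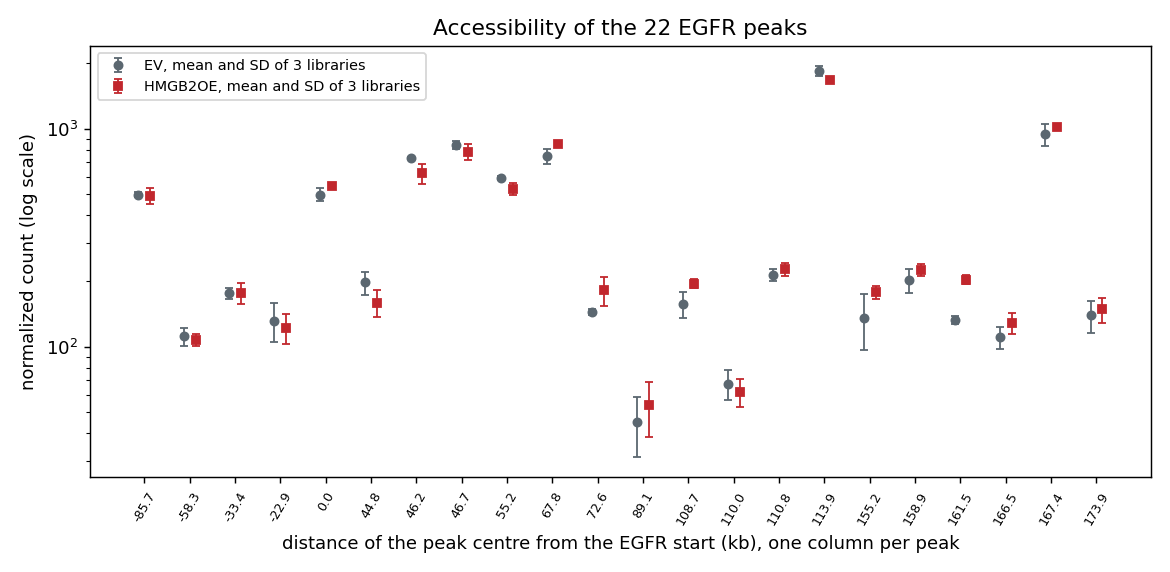
Normalized count (log scale) of each of the 22 EGFR peaks, in order of distance from the EGFR start (x axis, kb), as mean and SD of 3 EV libraries (grey circles) and 3 HMGB2OE libraries (red squares). Most pairs overlap within their SD, and the peak at 161 kb, within EGFR-AS1, stands apart with 133 in EV and 203 in HMGB2OE libraries.

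The other strong EGFR peaks differed little, in both directions. An intronic peak near the start of the antisense transcript EGFR-AS1 (chr7:55186120-55186621) had 831, 952 and 1046 against 1035, 994 and 1026 (log2 fold change 0.11, SE 0.087), with overlap. Of the adjacent pair in the first intron, chr7:55065509-55066010 had 802, 856 and 871 against 840, 801 and 714 (-0.10, SE 0.087), with overlap. Its partner chr7:55064983-55065484 had 738, 728 and 743 against 665, 661 and 548 (-0.23, SE 0.092), with the conditions apart. At chr7:55086524-55087025, also intronic, the values were 689, 805 and 747 against 859, 857 and 847 (0.19, SE 0.086), with every HMGB2OE library above every EV library. The lowest EGFR fold change was next to the pair, at chr7:55063558-55064059, where 172, 219 and 199 stood against 170, 175 and 133 (-0.31, SE 0.139), with overlap.

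The called EGFR peak (chr7:55180249-55180750) is intronic to EGFR and lies inside the body of EGFR-AS1. It had 131, 139 and 129 in EV libraries and 209, 192 and 208 in HMGB2OE libraries, well apart, with a log2 fold change of 0.61 (SE 0.133). The size is close to the fold limit: it was 0.54 with a GC-content offset, 0.58 without EV3 and 0.58 without HMGB2OE1, and the peak was not called in these 3 fits. The values of EGFR and its antisense transcript cannot be told apart at this peak, since ATAC-seq reads carry no strand. Libraries were apart, with HMGB2OE higher, at 5 of the 22 EGFR peaks (12.6% of all tested peaks) and, with HMGB2OE lower, at 3 (12.5% of all tested peaks). By position, the 4 peaks between 44.8 and 55.2 kb into the gene had fold changes below 0 and the 6 from 155 kb onwards above 0, as the plot of EGFR peaks shows. These windows were not fixed beforehand, so no pattern by position is read from them.

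The AP-1 word was in 28.0% of all tested peaks, 21.4% of the peaks in the low stretch and 37.9% of the 66 members right of it. Of the 22 EGFR peaks, which are among those 66, 12 held it (54.5%). The 12 had a median EV count of 384 and a median log2 fold change of -0.03, and the 10 without the word had 177 and 0.14. The SOX word was in 18.2% of EGFR peaks against 12.1% of all tested peaks, and the GC box in 22.7% against 21.0%. These are matches of letters, over few peaks and without a comparison set matched for accessibility, and no test was made of them.

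Right of EGFR, LANCL2 and VOPP1 had medians of 0.05 and 0.00, and none of their 14 and 17 peaks was called. Over all tested peaks, 1.44% were called lower and 1.87% higher, so few calls would be looked for among so few peaks. The LANCL2 promoter peak (chr7:55365812-55366313), which lies in its first coding exon, was its most accessible, with 1598, 1680 and 1552 in EV and 1368, 1505 and 1301 in HMGB2OE libraries, each of the latter below each of the former (log2 fold change -0.21, SE 0.078). The highest LANCL2 value was at an intergenic peak just beyond the end of EGFR (chr7:55212762-55213263), with 491, 584 and 648 against 813, 730 and 805 (0.44, SE 0.097), again apart but in the opposite direction. Its lowest, chr7:55369331-55369832, had 66.7, 60.2 and 52.7 against 36.6, 46.7 and 51.8 (-0.42, SE 0.24).

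VOPP1 has several transcript starts. The peak at the start of its longest gene model (chr7:55572022-55572523) had 352, 336 and 350 in EV libraries and 350, 409 and 308 in HMGB2OE libraries, with overlap (log2 fold change 0.05, SE 0.112). The most accessible promoter peak by the count rule, at an internal start (chr7:55538505-55539006), had 425, 415 and 440 against 366, 364 and 307, with the conditions apart (-0.30, SE 0.105). The extremes of the gene were chr7:55622640-55623141, with 86.2, 72.3 and 59.7 against 65.5, 45.9 and 38.3 (-0.52, SE 0.233), and chr7:55504403-55504904, with 45.9, 26.7 and 31.6 against 56.1, 55.9 and 64.2 (0.78, SE 0.264). Both are shallow and neither was called.

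**Figure D4:**
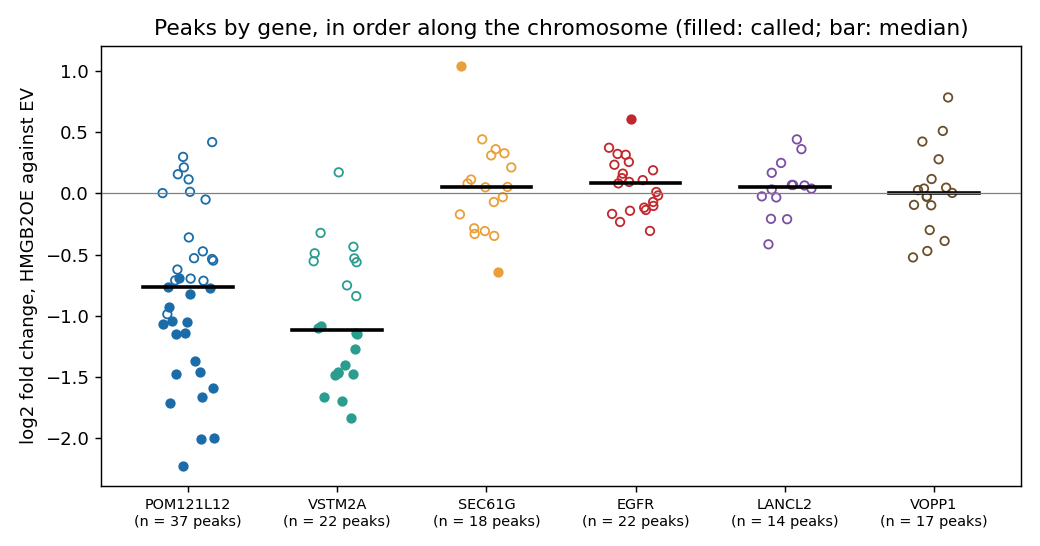
Log2 fold change of every member peak (y axis, HMGB2OE against EV) by gene in order along the chromosome (x axis), with called peaks filled and the median of each gene as a bar. The bars of POM121L12 (-0.76) and VSTM2A (-1.12) lie below 0, and those of SEC61G, EGFR, LANCL2 and VOPP1 lie between 0.00 and 0.09.

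In EV libraries the genes were ordered, in normalized counts per peak, as EGFR (374 to 405), LANCL2 (267 to 272), VOPP1 (177 to 192), SEC61G (167 to 171), VSTM2A (153 to 163) and POM121L12 (102 to 105), with no overlap between neighbours in the order. In HMGB2OE libraries the order was kept. The first 4 had 388 to 400, 274 in each library, 185 to 186 and 172 to 182, while VSTM2A had 104 to 106 and POM121L12 66.1 to 74.4. For VSTM2A the group values were 159 ± 5.50 and 105 ± 0.95 (SD, n = 3 each), a log2 ratio of -0.60, and for POM121L12 they were 103 ± 1.43 and 69.1 ± 4.58 (SD, n = 3 each), a log2 ratio of -0.58. These ratios of sums are smaller in size than the medians of -1.12 and -0.76 and a sum gives strong peaks, the LINC01446 start site among them, more weight.

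**Figure D5:**
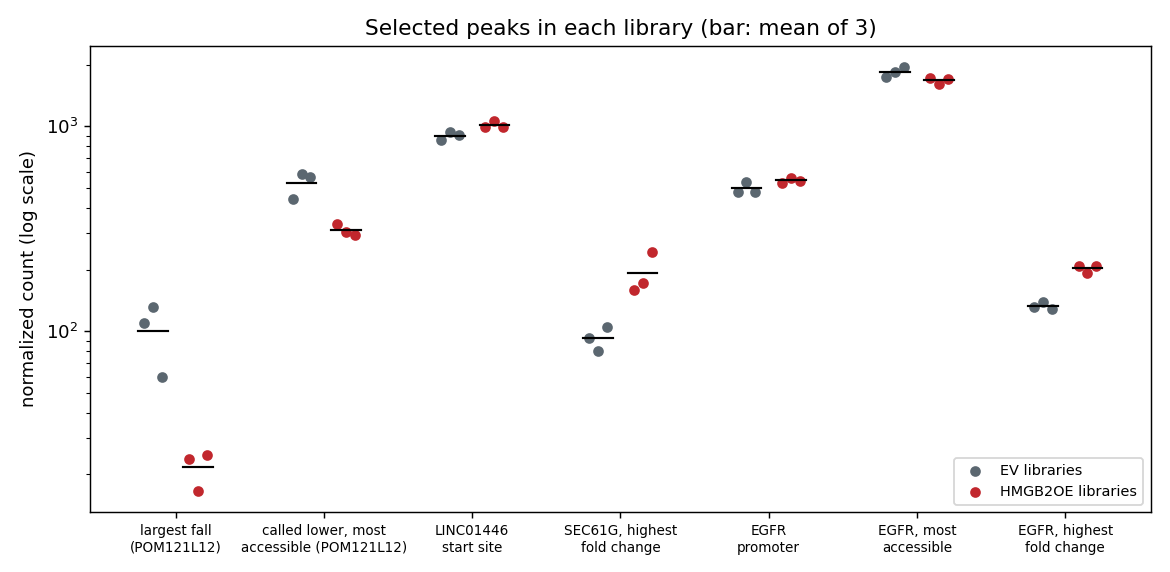
Normalized count (y axis, log scale) of 7 peaks in each EV library (grey) and each HMGB2OE library (red), with the mean of 3 as a bar. From left to right, the 2 POM121L12 peaks are lower in every HMGB2OE library, LINC01446 and the SEC61G peak are higher in every one, the EGFR promoter overlaps, the most accessible EGFR peak is slightly lower, and the peak within EGFR-AS1 is higher.

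At the limits of the gene rule, no peak was called. The leftmost member (chr7:52260093-52260594, POM121L12) had a log2 fold change of 0.11. The next peak outside, assigned to COBL (chr7:52165958-52166459), had one of 0.41 (SE 0.178). Every HMGB2OE library was above every EV library at the COBL peak, as at 12.6% of all tested peaks. The rightmost member (chr7:55698987-55699488, VOPP1) and the next peak outside, assigned to SEPTIN14 (chr7:55722818-55723319), both had 0.04.

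The next question was whether the other genes of the ERBB system differed between the conditions. These 25 genes were not used to choose the members, but the list was drawn up with earlier results of these libraries known. They had 431 tested peaks, of which 9 were called lower (2.09%, against 1.44% of all tested peaks) and 5 higher (1.16%, against 1.87%). The median log2 fold change was -0.02. Leaving out a library in turn gave 3 to 8 lower calls, with 3 without HMGB2OE3, 4 without EV2 and 5 without HMGB2OE1. Of the 3 partner receptors, ERBB2 had a promoter peak (chr17:39687680-39688181) at 914, 967 and 967 in EV and 949, 894 and 839 in HMGB2OE libraries (log2 fold change -0.09, adjusted p = 0.598 by edgeR's quasi-likelihood test). ERBB3 (chr12:56078953-56079454) was at 1267, 1317 and 1364 against 1204, 1215 and 1382 (-0.06, adjusted p = 0.739, edgeR), and ERBB4 (chr2:212538846-212539347) at 156, 156 and 142 against 113, 127 and 107 (-0.38, adjusted p = 0.119, edgeR). The conditions overlapped at ERBB2 and ERBB3 and were apart at ERBB4, where the difference did not pass the test.

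Of the 52 peaks of the receptors, 1 was called lower (1.92%, against 1.44% of all tested peaks) and 2 higher (3.85%, against 1.87%). None of these 3 was a promoter peak given above. An intergenic peak 185 kb from the ERBB4 start (chr2:212723163-212723664) rose from 28.9 ± 6.49 in EV to 62.1 ± 10.6 in HMGB2OE libraries (mean ± SD of 3, as below; log2 fold change 1.06, edgeR adjusted p = 0.0141). Another in an ERBB4 intron (chr2:212005084-212005585) fell from 86.6 ± 9.57 to 53 ± 3.13 (-0.72, edgeR adjusted p = 0.0289). A peak 2.24 kb from the ERBB3 start (chr12:56074306-56074807) rose from 56.1 ± 24.8 to 94.7 ± 12.0 (0.75, edgeR adjusted p = 0.0454). The ERBB4 peaks thus passed the test in both directions.

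Of the 75 peaks of the 7 ligands, none was called higher and 1 lower (1.33%, against 1.44% of all tested peaks). It was an intergenic peak 101 kb from AREG, which encodes amphiregulin (chr4:74546045-74546546), and it fell from 70.9, 81.7 and 51.5 in EV to 28.1, 25.9 and 28.1 in HMGB2OE libraries (log2 fold change -1.32, SE 0.263, edgeR adjusted p = 0.00222). The 29 peaks of TGFA and the peaks of EGF, EREG, HBEGF, BTC and EPGN had none called. Of the 103 peaks of adaptors and effectors, 1 was called lower (0.971%, against 1.44% of all tested peaks) and 2 higher (1.94%, against 1.87%). The lower one, an intronic STAT3 peak (chr17:42325847-42326348), fell from 131 ± 5.81 to 84.4 ± 9.90 (-0.62, edgeR adjusted p = 0.0185). Peaks of PIK3R1, a regulatory subunit of PI3K, were called higher at 2 of 45, the larger 318 kb away (chr5:67897358-67897859), which rose from 32.9 ± 7.97 to 79.6 ± 12.3 (1.26, edgeR adjusted p = 0.0016). GRB2, SHC1, SOS1, GAB1, PLCG1 and PIK3CA had no called peak.

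The inhibitors and turnover factors had 201 peaks, 6 called lower (2.99%, against 1.44% of all tested peaks) and 1 higher (0.498%, against 1.87%). LRIG3, a relative of the EGFR-restraining protein LRIG1, had 4 of the lower peaks, all intergenic and between 390 and 506 kb from its start, so their link to the gene rests on distance alone. They form 2 neighbouring pairs. The most changed (chr12:58530606-58531107) fell from 117 ± 11.6 to 69.9 ± 2.98 (-0.74, edgeR adjusted p = 0.00889). An intronic LRIG3 peak (chr12:58889486-58889987) rose from 107 ± 11.8 to 173 ± 6.04 (0.71, edgeR adjusted p = 0.00319). The ubiquitin ligase CBLB had 2 of the lower peaks, both intergenic, the more changed at chr3:106005908-106006409 falling from 59.7 ± 10.9 to 32.1 ± 2.60 (-0.89, edgeR adjusted p = 0.0376). CBL, ERRFI1, LRIG1, SOCS5 and PTPN1 had none. Of the 14 ERBB calls, 5 held with each of the 6 libraries left out in turn, namely the AREG peak, the larger PIK3R1 peak, the intronic and the most changed intergenic LRIG3 peak, and a CBLB peak at chr3:106560470-106560971. The other named calls rested on more of the libraries: the intergenic ERBB4 peak was not called without HMGB2OE3 (adjusted p = 0.0833, edgeR), the STAT3 peak was called in 3 of the 6 fits, the ERBB3 and the intronic ERBB4 peak in 1 each, and the more changed CBLB peak in none.

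The protein-coding genes off chromosome 7 whose summed accessibility was most like that of EGFR over the 6 libraries were CROCC2, SLC35C2, TENT5B, GALNT2 and GADL1, among 8687 genes with at least 5 tested peaks. Pearson's r was between 0.989 and 0.998, given as a description since the values share libraries and depth. Each of these 5 genes, like EGFR, was lowest in EV1, which follows from choosing them by likeness to EGFR over these libraries.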

How the data were processed

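ATAC-seq was performed on A375 cells, with 3 EV and 3 HMGB2OE libraries grouped by their labels. The authors used Trim Galore 0.6.7 and Cutadapt 4.0 for trimming, Bowtie 2 for alignment (hg38), Picard for duplicate removal and MACS2 for peaks, with public melanocyte data as its control. Blacklisted regions were left out, peaks within 500 bases were merged, and the authors deposited raw featureCounts counts for each peak and library. Handling of reads with several alignments and any Tn5 shift are not given in the sources used here. Either could change counts in repeats.

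Counts were fitted over 150117 peaks with edgeR 4.0.16 (TMM, filterByExpr, quasi-likelihood test, Benjamini-Hochberg adjustment) in R 4.3.3, with DESeq2 1.42.0 as an alternative. Each SE is the absolute log2 fold change over the root of its F value. Ratios of single libraries used a pseudocount of 1 on normalized counts. Ends were searched outwards from the member peak with the lowest running median. The search had been designed to start at the middle of EGFR, where there was no fall, and this change was made after seeing the data. On simulated data drawn from these libraries the test recovered 98.5% of 200 planted peaks, each set to 1.5 on the log2 scale, with 15 false calls among 149847 peaks. Recovery of smaller changes was not simulated. The running median over 15 peaks can misplace an end by up to 7 peaks.

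The members and lists were chosen with earlier results of these data known. Named by rule were, for each gene, its strongest promoter peak and its lowest and highest fold change at a mean count of at least 20, the 5 strongest EGFR peaks, the 3 peaks on each side of each end (of which the nearest are printed), each receptor and each ERBB gene with a called peak, and the 5 genes most like EGFR. The start-site peaks of VOPP1, VSTM2A, LINC01445 and LINC01446 and 4 other peaks, at 52299112, 53602795, 54260693 and 54546590, were chosen after their values were seen. Sequences are from hg38 and RefSeq (GRCh38.p14), which had promoter entries for 5 of the 6 genes. The alternatives were other scalings, filters, tests, windows and limits, a GC-content offset, the replicate number as a block, and leaving out each library. A marker of the leukocyte list is not reported here.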

Additional observations from a re-analysis of the deposited data

How the results depend on the processing

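The medians of POM121L12 and VSTM2A were below 0 and those of EGFR and LANCL2 above 0 under every alternative run. Those of EGFR (0.04 to 0.12) and LANCL2 (0.004 to 0.10) were small throughout, so no rise is read from them. The medians of SEC61G (-0.05 to 0.16) and VOPP1 (-0.04 to 0.10) changed sign between alternatives. With all libraries, or with the running median of single libraries, the ends moved most as follows. The left end was at 52328428 with a window of 31 peaks, and the right end at 54615802 in the fit of 2 levels and at 54664451 from HMGB2OE3 alone. The fit of 2 levels on single libraries moved the right end further, to 54483773 in HMGB2OE3, and left it at 54615802 in HMGB2OE1 and HMGB2OE2. Its left ends were 52722370 in HMGB2OE1, 52540296 in HMGB2OE2 and 52742107 in HMGB2OE3. Restricted to peaks between 53 and 56 Mb, the median of the members was -0.14. Member peaks called higher numbered 1 with a GC-content offset, 1 with that offset and the replicate block, and 5 without a fold limit. ERBB peaks called higher numbered 8 with the offset and the block and 11 without a fold limit, where 18 were called lower. Calls over all tested peaks moved too. Higher calls numbered 2800 in the main fit, 2318 with the offset, 2764 with the offset and the block and 5164 without a fold limit. Lower calls numbered 2166 in the main fit and 4546 without a fold limit. The cause of these shifts was not tested.

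Leaving out each library in turn gave 24 to 28 members called lower and 1 to 3 called higher, with 1 without EV3 and 1 without HMGB2OE1. The median of the members was between -0.23 (without EV2) and -0.17. The left end was between 52413241 and 52540296 and the right end between 54679162 and 54722095. ERBB peaks called lower numbered 3 to 8 (3 without HMGB2OE3, 4 without EV2, 5 without HMGB2OE1) and those called higher 4 to 6. Over all tested peaks the same fits gave 1552 to 2237 lower and 1821 to 2978 higher calls, against 2166 and 2800 with all libraries.

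Replicate numbers are shared by the conditions, but the deviations of same-numbered libraries had correlations of -0.09, 0.19 and 0.13, so the numbers were not taken as pairs. With the replicate block, 34 members were called lower and 2 higher, and 8 ERBB peaks lower and 7 higher. Depth limits single peaks most where EV counts are lowest, as at the left end.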
